A study of Mus musculus with 18 samples.

Results

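Mitochondrial ribosomal protein genes were selected by name, as the genes whose symbol starts with *Mrpl* or *Mrps* and a digit. A gene was kept where a probeset of the array carried that symbol alone, and the probeset with the highest mean over the 18 arrays stood for it. This gave 77 of the 19937 genes measured with 1 symbol. The large subunit had 48 of them (*Mrpl*) and the small subunit 29 (*Mrps*). All 77 had a mean above the median level of all probesets (6.26 on the log2 scale), and their means ran from 6.44 to 10.27.

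Mitochondria carry their own ribosome, which makes the few proteins encoded by mitochondrial DNA, all of them parts of the oxidative phosphorylation machinery. Its RNA comes from the mitochondrial genome, whereas its proteins are encoded in the nucleus, made in the cytosol and imported. Many of these proteins have a counterpart in the bacterial ribosome, and others are found in mitochondria alone. In neurons, oxidative phosphorylation supplies most of the ATP used for signalling.

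The RNA came from the hypothalamus of male mice and was labelled and hybridized to the Mouse Gene 1.0 ST array of Affymetrix, each mouse to its own array. BPH/2J is the hypertensive Schlager strain and BPN/3J the normotensive strain bred beside it, and no mouse had been treated. The ‘peak’ BP groups, killed in the active period at 26 weeks of age, held 6 BPH/2J and 6 BPN/3J mice. The ‘trough’ BP groups, killed in the inactive period, held 3 mice of each strain, aged 18 weeks by the sample labels and 19 weeks by the description of the series, so that time of day and age cannot be told apart. Titles of the BPN/3J ‘trough’ mice give BPN although their strain label reads BPH/2J, and these mice were grouped by title. The labels name the whole hypothalamus, while the methods of the study describe removal of its paraventricular and dorsomedial regions. Values are log2 signals after RMA normalization by the authors, differences are on that scale with their SE, and a gene passed at a limma adjusted p under 0.05 over all 34760 probesets.

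The neuronal markers *Snap25* (12.65) and *Syt1* (12.43) and the hypothalamic *Pmch* (12.14) were among the brightest probesets, and *Oxt* (9.38) and *Hcrt* (9.32) were also bright. In BPN/3J ‘trough’ mouse 3 the median deviation of 5 pituitary markers was 2.76, against -0.51 to 0.33 in the other 17 mice. Array medians ran from 6.17 to 6.42. The interquartile range of an array was lowest in BPN/3J ‘trough’ mouse 1 (3.11) and BPN/3J ‘peak’ mouse 11 (3.29), against 3.33 to 3.63 in the others. These were also the arrays least correlated with the rest, at 0.968 and 0.963. In whole tissue, fewer cells of a type and less RNA per cell cannot be told apart.

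Many of the members rose from ‘trough’ to ‘peak’ BP in each strain, and none fell. In BPH/2J, 23 of 77 passed as higher and 0 as lower, where 4.63% of all genes were higher and 5.61% lower. In BPN/3J, 42 of 77 were higher and 0 lower, where 13.9% of all genes were higher and 14.7% lower. At an unadjusted p under 0.05, limma gave 40 higher and 0 lower in BPH/2J (12.3% and 13.7% of all genes) and 50 higher and 0 lower in BPN/3J (20% and 24% of all genes). Of the 10634 genes with a mean inside the range of the members, 6.75% were higher and 9.12% lower in BPH/2J at the adjusted threshold, and 21.7% were higher and 10.1% lower in BPN/3J.

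All 23 genes that passed in BPH/2J also passed in BPN/3J (100% of 23 and 54.8% of 42). Over all genes, 798 were higher in both strains, which was 86.5% of those in BPH/2J and 28.7% of those in BPN/3J. The comparisons in the 2 strains share no mouse. They are not fully separate, since 1 model gave both the same estimate of the spread, and age differed along with time in each strain. Over the members the median difference was 0.25 (BPH/2J) and 0.33 (BPN/3J), against -0.02 and -0.04 over all genes and -0.01 and 0.07 over genes in the members' range of level. A positive difference was measured for 71 of 77 in each strain. The ‘peak’ and ‘trough’ mice did not overlap for 32 members in BPH/2J, all higher at ‘peak’, against 9.07% of all genes (11.6% in the lower direction). In BPN/3J they did not overlap for 34 members in the higher direction, against 12.5% of all genes, and for 1 in the lower, against 11.2%.

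**Figure D1:**
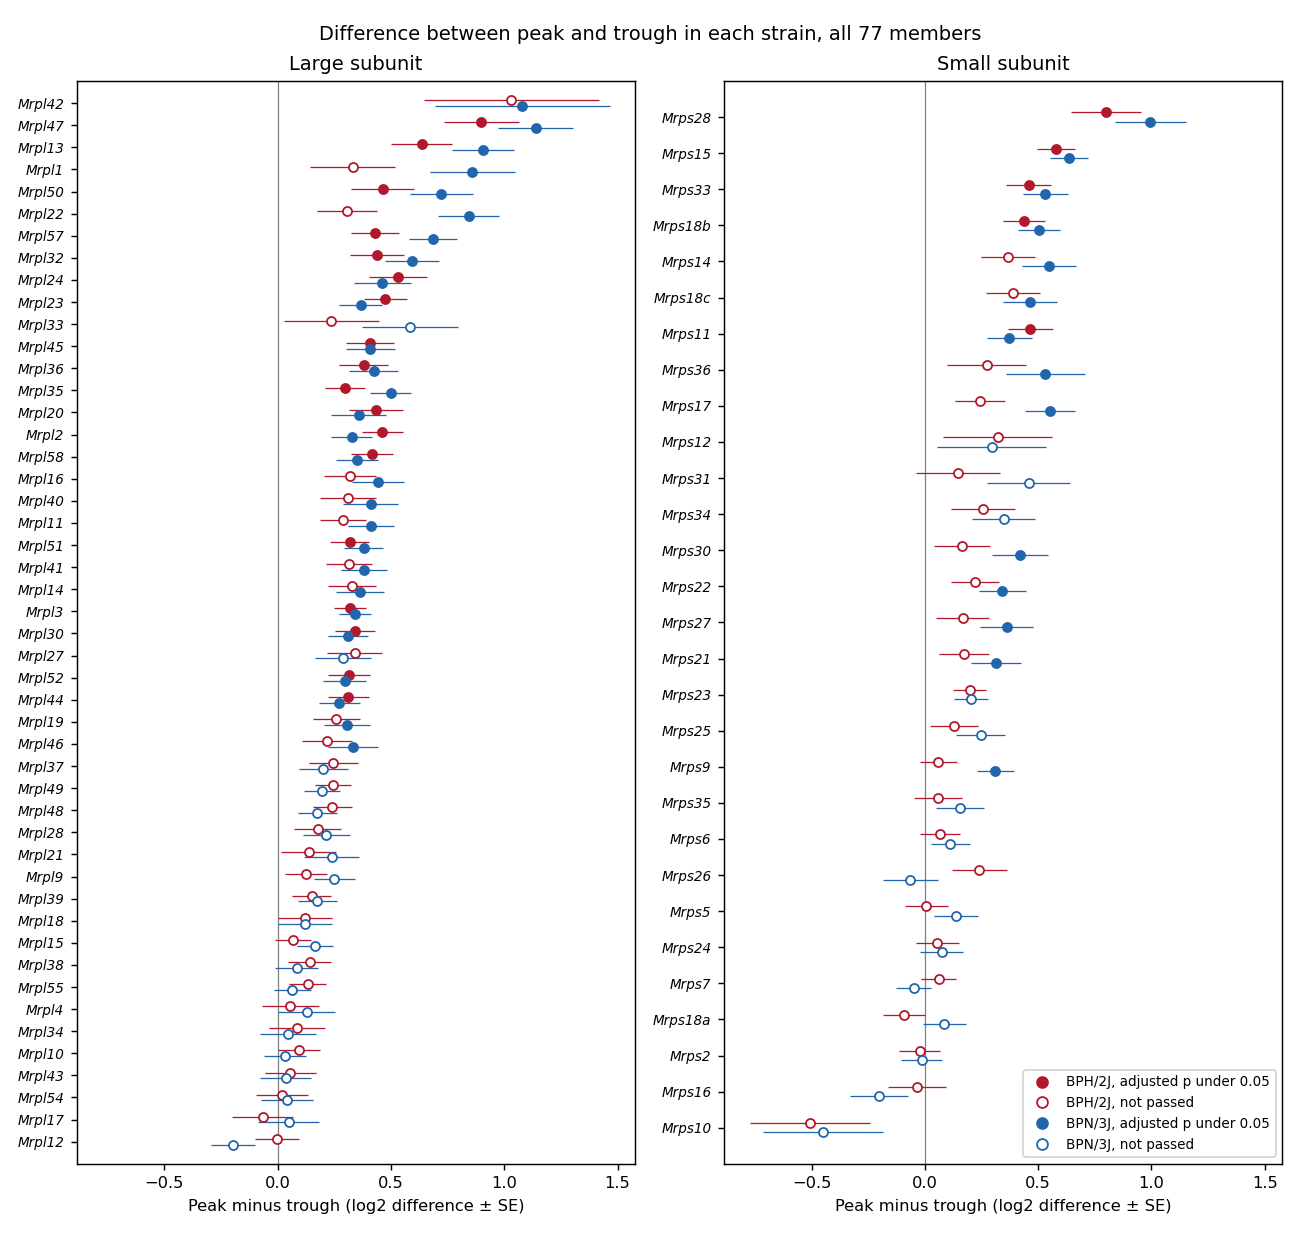
Difference between ‘peak’ and ‘trough’ BP for each of the 77 members (log2, with SE), large subunit on the left and small subunit on the right, BPH/2J in red and BPN/3J in blue. Filled points passed at an adjusted p under 0.05, 23 in BPH/2J and 42 in BPN/3J, and all of them lie to the right of 0.

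The count moved with single mice to a large degree. Without BPH/2J ‘trough’ mouse 1, 6 members passed in BPH/2J, and 12, 13 and 13 passed without ‘trough’ mouse 2, ‘trough’ mouse 3 and ‘peak’ mouse 5. Of all genes, 1.17% passed as higher without ‘trough’ mouse 1, against 4.63% with all mice. In BPN/3J, 19 members passed without ‘trough’ mouse 1, where 6.73% of all genes did, and 24 passed without ‘trough’ mouse 3, the one with the pituitary signal. Without the 2 least correlated arrays, BPN/3J ‘trough’ mouse 1 and ‘peak’ mouse 11, 28 passed in BPH/2J and 25 in BPN/3J, all higher. The share of all genes that passed also moved between fits. Counts printed without that share therefore do not set the members apart from other genes.

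The 4 higher-numbered ‘peak’ mice, 8 and 9 of BPH/2J and 10 and 11 of BPN/3J, stood apart from the other 8 in some gene lists. The median deviation of the cytosolic ribosomal protein genes was -0.16 to -0.06 in these 4 and 0.12 to 0.30 in the other 8. For the large subunit of the mitochondrial ribosome it was -0.08 to 0.09 in the 4 and 0.04 to 0.27 in the 8. Without the 4 mice, 45 members passed as higher in BPH/2J and 53 in BPN/3J, where 12.4% and 21.5% of all genes did. With a term for them in the fit, 48 and 54 passed, where 12.9% and 22.1% of all genes did, and 0 members were lower in either fit. The labels do not say what the numbers stand for, and the part of these mice in the members' differences was not tested further.

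Over the large subunit, 18 of 48 genes were higher at ‘peak’ in BPH/2J and 28 of 48 in BPN/3J. Over the small subunit the counts were 5 of 29 and 14 of 29. As shares these were 37.5% and 58.3% for the large subunit and 17.2% and 48.3% for the small. Over all genes 4.63% and 13.9% were higher, and over genes in the members' range of level 6.75% and 21.7%. Median differences were 0.31 and 0.33 for the large subunit in BPH/2J and BPN/3J, and 0.17 and 0.31 for the small subunit. Whether the subunits differ was not tested. The proteins of *Mrps18a* and *Mrps30* sit in the large subunit of the known structures in spite of their names, and placing them there gave 18 of 50 and 29 of 50 for the large subunit. The protein of *Mrps36* is known as a part of the oxoglutarate dehydrogenase complex and was kept because its name fits the rule.

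To follow the members in each mouse, the deviation of each gene from its own mean was taken and the median over a subunit was computed. For the large subunit this median was -0.21, -0.13 and -0.06 in the 3 BPH/2J ‘trough’ mice, and 0.07 at the lowest, 0.15 at the median and 0.27 at the highest in the BPH/2J ‘peak’ mice. All ‘trough’ mice of the strain lay below all ‘peak’ mice. In BPN/3J it was -0.33, -0.30 and -0.24 at ‘trough’, and -0.08, 0.07 and 0.15 at the lowest, median and highest ‘peak’ mouse. The groups did not overlap here either, and the lowest ‘peak’ mouse was mouse 11, one of the 2 least correlated arrays. For the small subunit the BPH/2J ‘trough’ mice had -0.16, -0.08 and -0.05 and the ‘peak’ mice 0.00 to 0.25, with a median of 0.09. The BPN/3J ‘trough’ mice had -0.32, -0.22 and -0.17 and the ‘peak’ mice -0.08 to 0.21, with a median of 0.09. The order of the groups was the same in both subunits, with the BPN/3J ‘trough’ mice lowest. Between 3 and 8 members lay above their own mean in a BPN/3J ‘trough’ mouse, and between 42 and 72 in a BPH/2J ‘peak’ mouse.

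**Figure D2:**
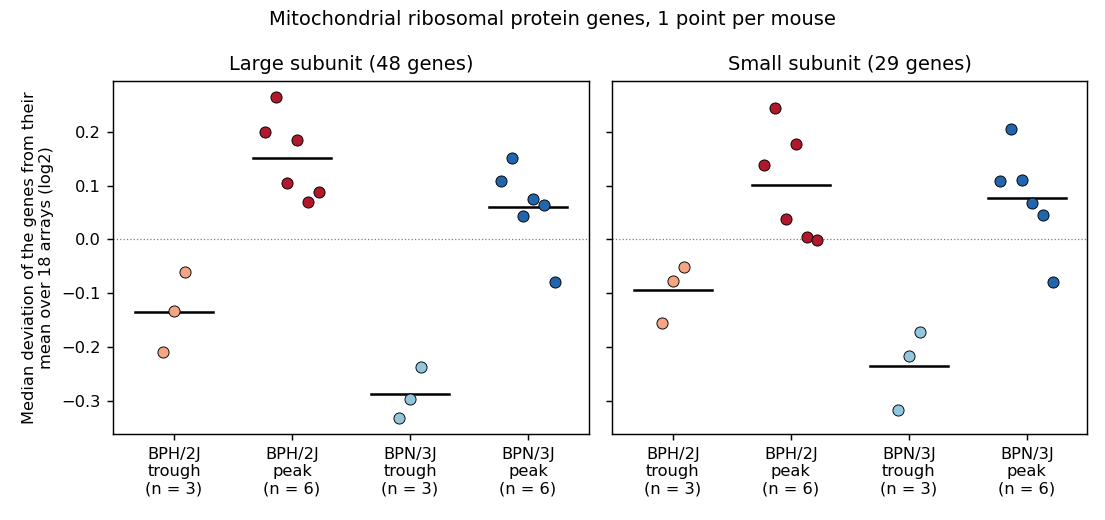
Median deviation of the large subunit genes (left) and the small subunit genes (right) from their means over 18 arrays (log2), 1 point per mouse, with a bar at the group mean. In each strain every ‘trough’ mouse lies below every ‘peak’ mouse, from -0.33 to -0.06 against -0.08 to 0.27 in the large subunit.

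The members are taken here by the place of their protein on the ribosome, an order made with the values known and not tested. Near the exit of the ribosomal tunnel, where the new protein leaves, some rose and others did not pass, such as *Mrpl17* with -0.07 in BPH/2J and 0.05 in BPN/3J. *Mrpl47*, the counterpart of bacterial L29, had 6.29, 6.73 and 6.83 in the BPH/2J ‘trough’ mice and 7.34, 7.49 and 7.73 as lowest, median and highest ‘peak’ value. In BPN/3J the ‘trough’ mice had 6.2, 6.44 and 6.55, and the ‘peak’ mice 6.97, 7.56 and 7.91. The groups did not overlap in either strain, and the gene rose by 0.90 ± 0.17 (1.86-fold, adjusted p = 0.00352) in BPH/2J and by 1.14 ± 0.17 (2.2-fold, adjusted p = 0.000459) in BPN/3J. A dimmer probeset for the same gene, with a mean of 6.75 against 7.19, gave -0.02 and -0.10, so the rise rests on 1 of the 2 probesets. *Mrpl24* had 8.99, 9.22 and 9.18 at ‘trough’ and 9.38, 9.67 and 9.96 at ‘peak’ in BPH/2J, and 9.01, 8.99 and 9.18 against 9.37, 9.5 and 9.71 in BPN/3J. It rose in both strains, by 0.53 ± 0.13 and 0.46 ± 0.13, with adjusted p = 0.0157 and 0.0164 and without overlap, but the first did not pass without BPH/2J ‘trough’ mouse 1 or 3 (adjusted p = 0.109 and 0.0506). In bacteria its counterpart is among the first proteins to bind the RNA of the large subunit. The rise of *Mrpl23* was 0.48 ± 0.10 (adjusted p = 0.00574) in BPH/2J and 0.37 ± 0.10 (adjusted p = 0.0123) in BPN/3J, and its other probeset gave 0.29 and 0.00, neither of which passed. *Mrpl45*, whose protein holds the mammalian ribosome at the inner membrane, rose by 0.41 in both strains (adjusted p = 0.0257 and 0.0127).

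*Mrpl22* encodes a further protein of the tunnel. Its ‘trough’ values were 6.31, 6.34 and 6.18 in BPH/2J and 5.78, 5.98 and 5.79 in BPN/3J, and its ‘peak’ mice ran from 6.23 to 6.87 and from 6.34 to 6.83. It rose in BPN/3J by 0.84 ± 0.13 (adjusted p = 0.000762), without overlap. In BPH/2J the groups overlapped and the difference of 0.31 ± 0.13 did not pass (adjusted p = 0.174).

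*Mrpl13* encodes a large subunit protein with a bacterial counterpart. Its BPH/2J ‘trough’ values were 7.71, 7.89 and 7.92, and the ‘peak’ values were 8.24, 8.45 and 8.71 as lowest, median and highest. In BPN/3J the ‘trough’ mice had 7.28, 7.60 and 7.72 and the ‘peak’ mice 8.12, 8.48 and 8.66. No ‘trough’ mouse reached the lowest ‘peak’ mouse of its strain. The rise was 0.63 ± 0.14 (adjusted p = 0.00843) and 0.90 ± 0.14 (adjusted p = 0.000554), and the first of these did not pass without BPH/2J ‘trough’ mouse 1 (adjusted p = 0.0644). *Mrpl2*, whose bacterial counterpart lies beside the peptidyl transferase centre, rose by 0.46 ± 0.09 (adjusted p = 0.00491) in BPH/2J and by 0.33 ± 0.09 (adjusted p = 0.0164) in BPN/3J. *Mrpl3*, a protein of the same region, rose by 0.32 ± 0.07 and 0.34 ± 0.07 (adjusted p = 0.0103 and 0.00371) and had the smallest spread among mice of all members, with a residual SD of 0.07.

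Of the stalks of the large subunit, which handle transfer RNA and elongation factors, no gene named here passed in BPH/2J. *Mrpl1*, of the stalk where used transfer RNA leaves, rose by 0.86 ± 0.19 in BPN/3J (adjusted p = 0.00473), and in BPH/2J its 0.33 ± 0.19 did not pass. *Mrpl11*, at the base of the factor-binding stalk, rose by 0.41 ± 0.10 in BPN/3J (adjusted p = 0.00944), and its 0.29 in BPH/2J did not pass. *Mrpl10* and *Mrpl12* form that stalk, and neither passed. *Mrpl10* gave 0.09 and 0.03. *Mrpl12* had 8.85, 8.86 and 8.87 in the BPN/3J ‘trough’ mice and 8.57 to 8.82 in the ‘peak’ mice, the 1 case of all ‘peak’ mice below all ‘trough’ mice. Its difference of -0.20 ± 0.10 in BPN/3J had an adjusted p of 0.135, and in BPH/2J it was -0.002.

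Among the large subunit proteins found in mitochondria alone, *Mrpl57* rose by 0.43 ± 0.11 (adjusted p = 0.0183) in BPH/2J and by 0.68 ± 0.11 (adjusted p = 0.000654) in BPN/3J. *Mrpl50* rose by 0.46 ± 0.14 and 0.72 ± 0.14 (adjusted p = 0.0471 and 0.00242), and the first did not pass without any 1 of the BPH/2J ‘trough’ mice, without BPH/2J ‘peak’ mouse 4, 5, 6 or 7 or without BPN/3J ‘peak’ mouse 5, 7, 8 or 10 (adjusted p from 0.0505 to 0.164). *Mrpl58*, a hydrolase built into the ribosome that frees stalled chains, rose by 0.42 ± 0.09 and 0.35 ± 0.09 (adjusted p = 0.0101 and 0.0134). *Mrpl44*, which resembles the RNA-cutting enzyme RNase III, rose by 0.31 and 0.27 (adjusted p = 0.04 and 0.0371). The widest spread was that of *Mrpl42*, with a residual SD of 0.60. Its differences were 1.03 ± 0.39 in BPH/2J, which did not pass (adjusted p = 0.11), and 1.08 ± 0.39 in BPN/3J, which passed (adjusted p = 0.0498) but did not without any 1 of 11 mice: the 3 BPH/2J ‘trough’ mice, BPN/3J ‘trough’ mouse 1 or 3, BPH/2J ‘peak’ mouse 4 or 6, or BPN/3J ‘peak’ mouse 5, 6, 7 or 8 (adjusted p from 0.0539 to 0.191). Its ‘peak’ and ‘trough’ mice overlapped in both strains. BPH/2J ‘peak’ mice 8 and 9 had 7.15 and 7.37, against 8.17 to 8.89 in mice 4 to 7, and BPN/3J ‘peak’ mice 10 and 11 had 7.70 and 7.15, against 7.97 to 8.57 in mice 5 to 8. The higher-numbered mice were thus the lowest of the ‘peak’ mice in each strain.

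In the small subunit, *Mrps28* showed the largest differences. The BPH/2J mice had 6.75, 6.99 and 7.18 at ‘trough’ and 7.53, 7.84 and 8.0 as lowest, median and highest at ‘peak’. The BPN/3J mice had 6.58, 6.95 and 7.0 at ‘trough’ and 7.36, 7.89 and 8.10 at ‘peak’. Neither strain had an overlap, and the rise was 0.80 ± 0.16 (1.74-fold, adjusted p = 0.0047) and 1.00 ± 0.16 (1.99-fold, adjusted p = 0.000686). *Mrps15*, whose bacterial counterpart binds the small subunit RNA early in assembly, had the smallest adjusted p of all members in both strains. Its ‘trough’ values were 9.56, 9.67 and 9.57 in BPH/2J and 9.66, 9.36 and 9.60 in BPN/3J. At ‘peak’ the lowest, median and highest values were 10.08, 10.19 and 10.27, and 10.04, 10.19 and 10.29. Every ‘peak’ mouse lay above every ‘trough’ mouse, whatever the strain. *Mrps15* rose by 0.58 ± 0.08 (adjusted p = 0.000924) and by 0.64 ± 0.08 (adjusted p = 0.000237).

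*Mrps11*, of the platform of the small subunit, rose by 0.47 ± 0.10 in BPH/2J (adjusted p = 0.00843) and by 0.37 ± 0.10 in BPN/3J (adjusted p = 0.0143). *Mrps33*, found in mitochondria alone, rose by 0.46 ± 0.10 and 0.53 ± 0.10 (adjusted p = 0.00884 and 0.00203). In BPH/2J the former did not pass without ‘trough’ mouse 2 (adjusted p = 0.0592), nor the latter without ‘trough’ mouse 1 (adjusted p = 0.0588). A dimmer probeset of *Mrps33* gave 0.19 in BPH/2J, which did not pass (adjusted p = 0.375), and 0.58 in BPN/3J (adjusted p = 0.00421). Mammals have 3 homologues of bacterial S18, and each is measured here. *Mrps18b* rose in both strains, by 0.44 and 0.50 (adjusted p = 0.00728 and 0.00173), *Mrps18c* rose in BPN/3J (0.46, adjusted p = 0.0122) with 0.39 in BPH/2J (adjusted p = 0.053), and *Mrps18a* gave -0.09 and 0.09 and passed in neither.

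A value below 0 was measured for 6 members in each strain, and limma passed 0 of them, also at an unadjusted p under 0.05. With array weights 3 passed as lower in BPN/3J, *Mrpl12*, *Mrps10* and *Mrps16*. Those weights were 9.44 for BPN/3J ‘trough’ mouse 3, the one with the pituitary signal, and 0.41 and 0.64 for mice 1 and 4. The weighted BPN/3J ‘trough’ mean thus rests mostly on mouse 3. *Mrps10* had 8.14, 7.87 and 7.35 in the BPH/2J ‘trough’ mice and 6.94, 7.19 and 7.98 as lowest, median and highest ‘peak’ value, and 7.38, 8.02 and 7.92 against 6.68, 7.39 and 7.86 in BPN/3J. The groups overlapped in both strains and the differences were -0.51 ± 0.27 and -0.45 ± 0.27 (adjusted p = 0.268 and 0.217). Differences of *Mrps2*, which is at the join of head and body in bacteria, were -0.02 and -0.01, and those of *Mrps16* were -0.04 and -0.20. *Mrps7*, of the head of the small subunit, gave 0.06 in BPH/2J and -0.05 in BPN/3J. A total of 31 members passed in none of the comparisons made.

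Further members also rose in both strains. *Mrpl30* rose by 0.34 and 0.31 (adjusted p = 0.0241 and 0.0193) and *Mrpl35* by 0.30 and 0.50 (adjusted p = 0.048 and 0.00162). A further group passed in BPN/3J and not in BPH/2J, which does not show that the strains differ. Among its small subunit genes *Mrps14* rose by 0.55 (adjusted p = 0.00476), *Mrps17* by 0.55 (adjusted p = 0.00293) and *Mrps9* by 0.31 (adjusted p = 0.0126). *Mrps27*, which encodes a pentatricopeptide repeat protein, a class that binds RNA, rose by 0.36 (adjusted p = 0.0335), and *Mrps21*, *Mrps22*, *Mrps30* and *Mrps36* also passed. Among its large subunit genes, *Mrpl16* rose by 0.44 (adjusted p = 0.0124), *Mrpl41* by 0.38 (adjusted p = 0.0136; 0.17 and 0.138 at its dimmer probeset) and *Mrpl14* by 0.36 (adjusted p = 0.0212), and *Mrpl19*, *Mrpl40* and *Mrpl46* also passed. The 35 members that passed between the times in neither strain had a median difference of 0.12 in BPH/2J and 0.13 in BPN/3J. They include *Mrps12*, of the decoding centre, with 0.32 and 0.29 (adjusted p = 0.465 and 0.374), and *Mrpl18*, with 0.12 in both.

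**Figure D3:**
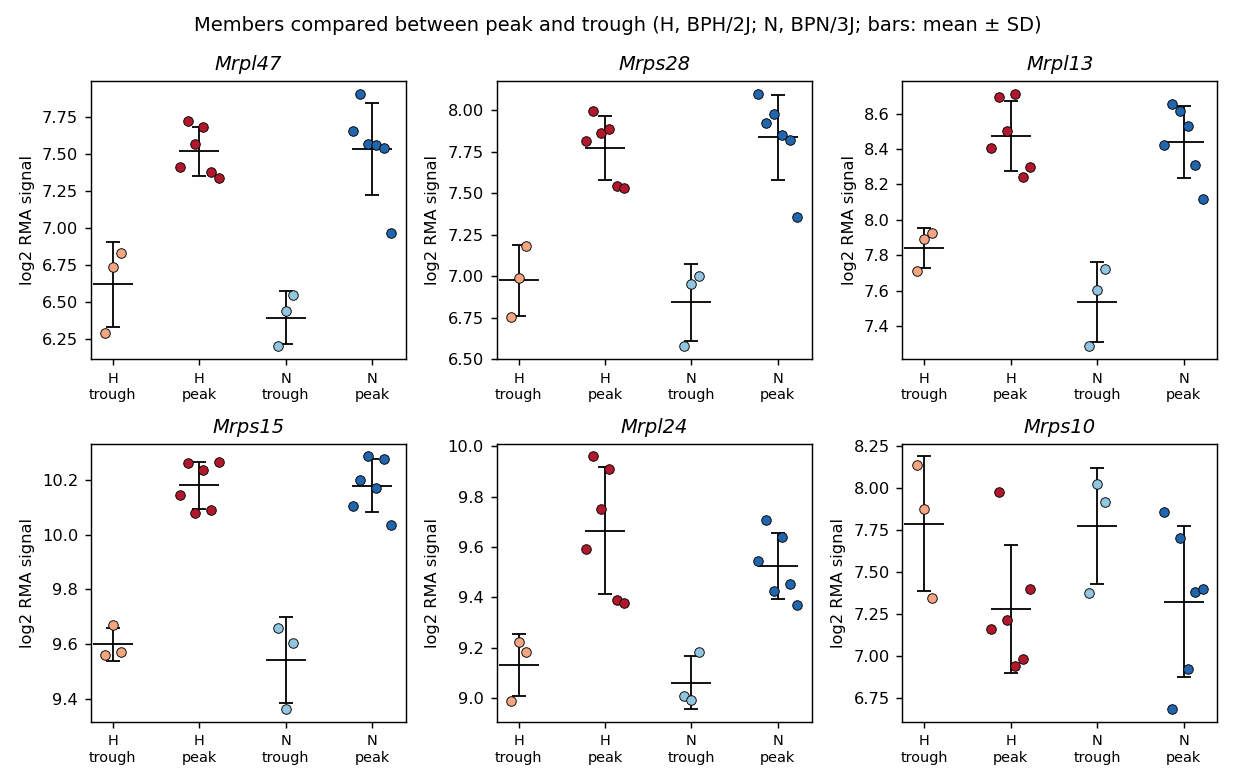
Log2 RMA signal of *Mrpl47*, *Mrps28*, *Mrpl13*, *Mrps15*, *Mrpl24* and *Mrps10* in each mouse, with the mean and SD of each group (3 ‘trough’ and 6 ‘peak’ mice per strain). ‘Peak’ lies above ‘trough’ without overlap in both strains for the first 5 genes, while the *Mrps10* groups overlap.

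Members were also counted by whether the protein has a bacterial counterpart, and the difference between the counts was not tested. Of the 48 members with one, 15 rose in BPH/2J and 26 in BPN/3J (31.2% and 54.2%). Of the 28 found in mitochondria alone, 8 and 15 rose (28.6% and 53.6%). Over all genes 4.63% and 13.9% were higher, and over genes in the members' range of level 6.75% and 21.7%.

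Promoters of the members were read from RefSeq (GRCm38.p6), from 250 bases before to 50 bases after the start of the gene, for the 68 members with an entry. The members without one were *Mrpl4*, *Mrpl13*, *Mrpl15*, *Mrpl19*, *Mrpl38*, *Mrpl54*, *Mrps28*, *Mrps34* and *Mrps35*. Motifs of factors known to act on nuclear genes for mitochondrial proteins were searched on both strands. The ETS core bound by NRF-2 (CCGGAAG) was found in 25 of 68 (36.8%), against 9.93% of all promoters and 13.8% of those of protein-coding genes measured here. The NRF1 motif, GCGC and TGCGC with 1 base of any kind between them, was found in 13 (19.1%), against 5.19% and 8.03%. The YY1 motif AAGATGGCG was found in 8 (11.8%), against 1.64% and 2.35%. At least 1 of the 3 motifs was present in 40 members (58.8%, against 15.1% and 21.7%). Related lists held them too. ETS was in 38.8% of cytosolic ribosomal protein promoters and 25.4% of those of the nuclear oxidative phosphorylation subunits, NRF1 in 10.2% and 23.9%, and YY1 in 2.04% and 10.4%. The share with at least 1 of the 3 was 66.7% (14 of 21) for members higher at ‘peak’ in both strains, 56.4% (22 of 39) for those higher in BPN/3J, with or without BPH/2J, and 62.1% (18 of 29) for those higher in neither. The E-box CACGTG, bound by clock factors, was in 5 members (7.35%, against 8.09% of all promoters and 9.58% of those measured). It was in 3 of 21 members higher in both strains (14.3%) and in 1 of 29 higher in neither (3.45%). Of those higher in BPN/3J, with or without BPH/2J, 4 of 39 had it (10.3%). These shares were not tested. The D-box TTATGTAA was in 0 of 68, against 1.11% of all promoters and 0.986% of those measured. A match is a description of the letters and not a site shown to be bound.

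The 120 bases before the start are shown for 6 members that rose in both strains and carry 1 of the motifs, so that its place can be seen. Each is given from 5′ to 3′ on the strand of the gene, and capitals mark an ETS, NRF1 or YY1 motif or its reverse complement. Other motifs stay in lower case, such as the E-box in *Mrpl36*. *Mrpl32* chr13:14613038-14613157 on the minus strand and *Mrpl45* chr11:97315596-97315715 on the plus strand have NRF1, *Mrpl51* chr6:125192080-125192199 on the plus strand and *Mrpl52* chr14:54426789-54426908 on the plus strand have ETS, and *Mrpl36* chr13:73330889-73331008 on the plus strand and *Mrps11* chr7:78783011-78783130 on the plus strand have YY1.
Mrpl32: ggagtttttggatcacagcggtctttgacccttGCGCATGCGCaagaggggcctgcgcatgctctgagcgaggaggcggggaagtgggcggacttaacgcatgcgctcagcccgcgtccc
Mrpl45: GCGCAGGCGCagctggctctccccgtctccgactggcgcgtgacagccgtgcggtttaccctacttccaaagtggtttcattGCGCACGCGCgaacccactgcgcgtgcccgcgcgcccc
Mrpl51: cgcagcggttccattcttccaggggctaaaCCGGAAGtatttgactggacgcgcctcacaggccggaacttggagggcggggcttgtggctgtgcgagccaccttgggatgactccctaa
Mrpl52: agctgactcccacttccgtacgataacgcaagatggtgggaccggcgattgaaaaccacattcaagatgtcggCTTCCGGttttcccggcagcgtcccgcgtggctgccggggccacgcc
Mrpl36: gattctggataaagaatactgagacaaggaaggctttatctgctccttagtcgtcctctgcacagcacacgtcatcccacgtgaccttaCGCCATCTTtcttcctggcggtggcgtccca
Mrps11: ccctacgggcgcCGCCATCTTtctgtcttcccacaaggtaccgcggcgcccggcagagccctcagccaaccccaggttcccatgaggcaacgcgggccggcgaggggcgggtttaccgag
*Mrpl45* held the NRF1 motif at 2 places. *Mrpl32* and *Mrpl36* encode small large-subunit proteins with bacterial counterparts, and the former rose by 0.44 and 0.59 (adjusted p = 0.0305 and 0.00319) and the latter by 0.38 and 0.42 (adjusted p = 0.0375 and 0.011). *Mrpl51* and *Mrpl52*, found in mitochondria alone, rose by 0.32 and 0.38 (adjusted p = 0.028 and 0.00551) and by 0.31 and 0.29 (adjusted p = 0.0447 and 0.0299). A dimmer probeset of *Mrpl51* gave 0.15 and 0.23, which passed in neither strain (adjusted p = 0.391 and 0.0864). By its number the brighter probeset of *Mrpl51* falls between those of *Mrps2* and *Mrps26* on chromosome 2, while the gene is on chromosome 6. Where its probes lie was not checked.

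Other genes of mitochondrial protein synthesis were compared in the same way. Of 15 translation factors, 0 rose in BPH/2J, where limma gave 4 higher and 0 lower at an unadjusted p under 0.05. In BPN/3J 6 rose (40%), among them *Gfm2*, which helps to split the ribosome (0.48, adjusted p = 0.0146), and the recycling factor *Mrrf* (0.44, adjusted p = 0.0098). Of 21 aminoacyl-tRNA synthetases and related enzymes, 1 rose in BPH/2J and 5 in BPN/3J (4.76% and 23.8%), shares near those of all genes in the members' range of level (6.75% and 21.7%), and *Hars2*, for histidine, rose in both (0.42 and 0.62, adjusted p = 0.0242 and 0.00142). Of 32 assembly and RNA factors, 3 rose and 1 fell in BPH/2J (9.38% and 3.12%), and 12 rose and 1 fell in BPN/3J (37.5% and 3.12%). Of genes in the members' range of level, 6.75% rose and 9.12% fell in BPH/2J, and 21.7% and 10.1% in BPN/3J. *Malsu1*, a silencing factor that binds the large subunit during its assembly, rose by 0.50 and 0.80 (adjusted p = 0.0132 and 0.000436), and *Nsun4*, which methylates the small subunit RNA, by 0.51 and 0.54 (adjusted p = 0.00555 and 0.00199). The gene that fell was *Polrmt*, the mitochondrial RNA polymerase, with -0.34 and -0.39 (adjusted p = 0.0262 and 0.00662).

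Among 4 mitoribosomal genes with other symbols, 0 passed in BPH/2J (1 higher and 0 lower at an unadjusted p under 0.05), and *Dap3* and *Ptcd3* of the small subunit rose in BPN/3J, by 0.36 and 0.72 (adjusted p = 0.0101 and 0.000854). The 82 nuclear subunits of oxidative phosphorylation, the machinery that mitochondrial translation serves, had 29 higher in BPH/2J and 35 in BPN/3J, with medians of 0.29 and 0.27. The 61 cytosolic ribosomal protein genes had 7 and 19 higher (11.5% and 31.1%), with medians of 0.25 and 0.27. In BPN/3J, 1 gene of each of these lists fell. No difference between the lists was tested.

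**Figure D4:**
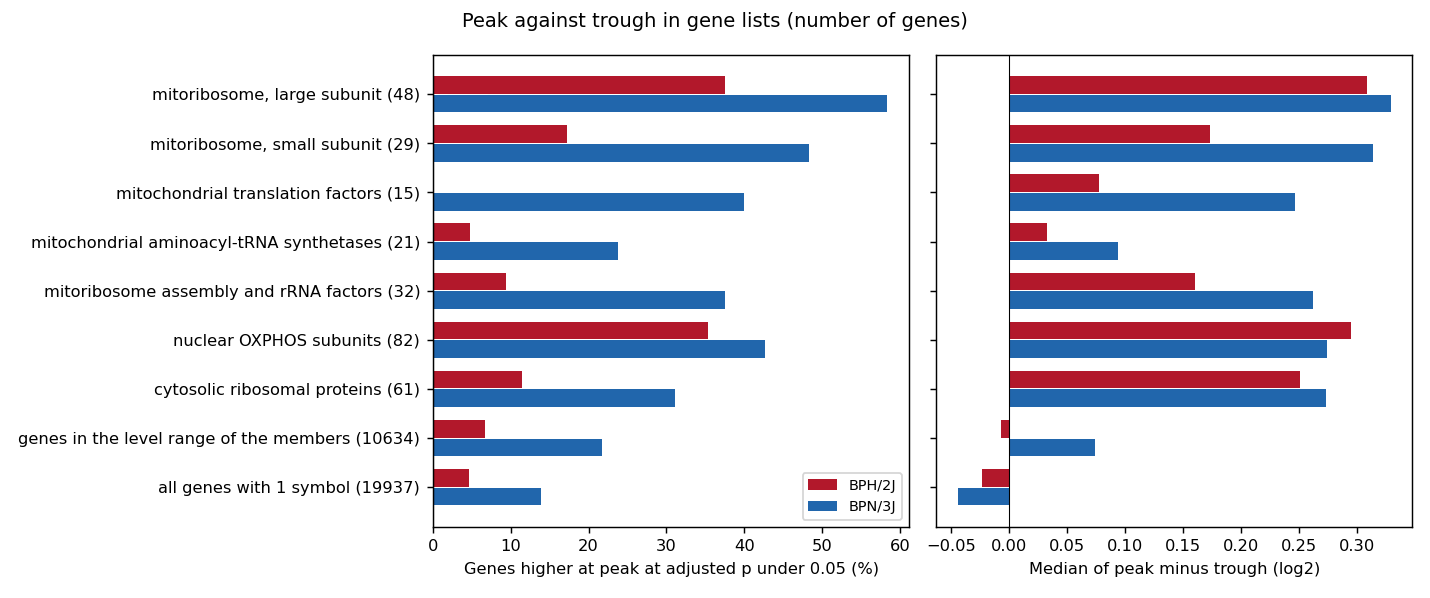
Share of genes higher at ‘peak’ than at ‘trough’ BP at an adjusted p under 0.05 (left, percent) and median of the difference (right, log2) for gene lists, BPH/2J in red and BPN/3J in blue. The large subunit (37.5% and 58.3%) and the oxidative phosphorylation subunits (35.4% and 42.7%) lie above the genes in the members' range of level (6.75% and 21.7%). That range was set by the mitochondrial ribosomal protein genes alone.

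Markers of other cells also moved between the times. All 5 endothelial markers were lower at ‘peak’ in BPH/2J, where *Kdr* and *Flt1* passed, and their median deviation was 0.22 to 0.36 in the ‘trough’ mice and -0.22 to 0.11 in the ‘peak’ mice. In BPN/3J 4 of 5 were lower, *Cldn5* passed, and the ranges were 0.02 to 0.18 and -0.39 to 0.21. All 5 pituitary markers were lower at ‘peak’ in BPN/3J, where *Gh*, *Prl* and *Pitx1* passed, from 0.20 to 2.76 at ‘trough’ to -0.45 to 0.24 at ‘peak’. In BPH/2J, 0 of the 5 passed, and 0 had an unadjusted p under 0.05. Of 4 oligodendrocyte markers all were lower at ‘peak’ in BPH/2J, with 0.23 to 0.35 at ‘trough’ and -0.31 to 0.24 at ‘peak’, and 0 passed (2 at an unadjusted p under 0.05). Of 9 hypothalamic markers, *Hcrt* and *Pmch* were higher at ‘peak’ in BPH/2J (1.29 and 0.86) and 0 passed in BPN/3J, where 1 was lower at an unadjusted p under 0.05. Of 5 neuronal markers, *Stmn2* passed as higher in BPH/2J (0.30) and *Rbfox3* as lower in BPN/3J (-0.30). At an unadjusted p under 0.05, limma gave 2 neuronal markers higher and 1 lower in each strain. Of 5 microglial markers, *Csf1r* was lower in both strains (-0.42 and -0.29), *P2ry12* higher in BPH/2J (0.47) and *Aif1* higher in BPN/3J (0.39). Markers of astrocytes, choroid plexus, thalamus, cortex with striatum and red blood cells had 0 passing in either strain. At an unadjusted p under 0.05, limma gave 1 astrocyte marker lower in BPH/2J and 1 higher in BPN/3J, and 1 choroid plexus marker lower in BPN/3J. The part of these cells in the members' differences was not tested.

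Between the strains, few members differed. At ‘peak’ BP 5 of 77 were higher in BPH/2J, where 0.697% of all genes were, and 0 were lower, where 0.687% were. At an unadjusted p under 0.05, 9 were higher and 2 lower (4.68% and 4.15% of all genes). At ‘trough’ BP 3 were higher, where 0.381% of all genes were, and 0 lower, where 0.186% were, with 10 higher and 2 lower at an unadjusted p under 0.05 (6.45% and 5.36% of all genes). Of genes in the members' range of level, 1.03% were higher and 0.865% lower at ‘peak’, and 0.649% and 0.226% at ‘trough’. All 3 were among the 5 at ‘peak’. Mice of the strains did not overlap for 6 members in the higher and 2 in the lower direction at ‘peak’ (0.903% and 0.798% of all genes), and for 23 and 3 at ‘trough’ (13.3% and 9.33%). Of the genes in the members' range of level, 10.7% were higher at ‘trough’ at an unadjusted p under 0.05 and 20.8% were higher without overlap. Without BPH/2J ‘trough’ mouse 3, BPN/3J ‘trough’ mouse 1 or BPN/3J ‘trough’ mouse 3, 1 member passed at ‘trough’, and it was *Mrpl20* as it was without the 2 least correlated arrays. At ‘peak’ the count of 5 was the same without those arrays.

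*Mrpl20*, a large subunit protein whose bacterial counterpart is needed early in assembly, showed the largest strain difference. At ‘peak’ its lowest, median and highest values were 8.71, 8.88 and 9.27 in BPH/2J and 7.65, 7.86 and 8.07 in BPN/3J. At ‘trough’ the BPH/2J mice had 8.44, 8.58 and 8.53, and the BPN/3J mice 7.49, 7.38 and 7.67. All 9 BPH/2J mice lay above all 9 BPN/3J mice. The gene was 2.12-fold higher in BPH/2J at ‘peak’ (1.08 ± 0.10, adjusted p = 2.88e-06) and 2.01-fold higher at ‘trough’ (1.00 ± 0.14, adjusted p = 0.000963). It also rose from ‘trough’ to ‘peak’ in both strains, by 0.43 ± 0.12 and 0.36 ± 0.12 (adjusted p = 0.0329 and 0.0389). The strain difference at ‘peak’ exceeded that at ‘trough’ by 0.08, with a 95% interval from -0.28 to 0.43.

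*Mrpl9*, also of the large subunit, had 8.45, 8.65 and 8.72 as lowest, median and highest ‘peak’ value in BPH/2J and 8.01, 8.14 and 8.30 in BPN/3J. The ‘trough’ values were 8.51, 8.36 and 8.58 against 7.84, 7.84 and 8.02. The strains did not overlap, at either time or over both, and BPH/2J was higher by 0.46 ± 0.07 (adjusted p = 0.00203) and 0.58 ± 0.11 (adjusted p = 0.0135). At ‘trough’ this did not pass without BPH/2J ‘trough’ mouse 1 or 3 (adjusted p = 0.0625 and 0.113) or BPN/3J ‘trough’ mouse 1 or 3 (adjusted p = 0.0764 and 0.0826).

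*Mrpl15*, whose bacterial counterpart belongs to the core of the large subunit, had 7.84, 7.85 and 7.88 as lowest, median and highest ‘peak’ value in BPH/2J, against 7.36, 7.45 and 7.67 in BPN/3J. At ‘trough’ it had 7.66, 7.93 and 7.75 against 7.22, 7.38 and 7.34. BPH/2J was higher without overlap at both times, by 0.37 ± 0.07 (adjusted p = 0.00464) and 0.47 ± 0.09 (adjusted p = 0.0267), and the latter did not pass without BPH/2J ‘trough’ mouse 2 or 3 or any 1 of the BPN/3J ‘trough’ mice (adjusted p from 0.0533 to 0.19). *Mrpl48*, found in mitochondria alone, had 9.29, 9.48 and 9.56 at ‘peak’ in BPH/2J, against 8.95, 9.11 and 9.24 in BPN/3J. There the strains did not overlap and differed by 0.37 ± 0.07 (adjusted p = 0.00992), and at ‘trough’ the 0.30 ± 0.10 did not pass (adjusted p = 0.305). By its number the *Mrpl48* probeset falls between those of *Mrpl50* and *Mrpl37* on chromosome 4, while the gene is on chromosome 7. Where its probes lie was not checked.

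*Mrps26*, of the small subunit and found in mitochondria alone, had 9.53, 9.69 and 9.75 as lowest, median and highest ‘peak’ value in BPH/2J, against 8.74, 9.33 and 9.38 in BPN/3J, where mouse 7 was the lowest. Without overlap, BPH/2J was higher by 0.44 ± 0.10 (adjusted p = 0.0304). Leaving out BPH/2J ‘peak’ mouse 4, 5, 7, 8 or 9 or BPN/3J ‘peak’ mouse 8 ended the call (adjusted p from 0.056 to 0.0728). At ‘trough’ the values were 9.35, 9.48 and 9.46 against 9.37, 9.10 and 9.39, which overlap, with a difference of 0.14 ± 0.14. *Mrps26* lies next to *Oxt* and *Avp* on chromosome 2, the genes for oxytocin and vasopressin, which gave 1.20 and 1.17 at ‘peak’ and did not pass (adjusted p = 0.313 and 0.246). Neighbours of *Mrpl20* were *Mxra8* (0.37, adjusted p = 0.0546) and *Ccnl2* (-0.15) on one side, and *Tmem88b* (0.11) and *Vwa1* (-0.06) on the other. Of the 2 measured genes on each side of these 5 members, 0 passed between the strains at either time. Those of *Mrpl48* were read at the gene on chromosome 7. Sequence differences between the strains under a probe were not analysed here.

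The 120 bases before the start are shown for 3 of the 5 members that differed between the strains, those with an ETS or NRF1 motif there. The positions are *Mrpl9* chr3:94443216-94443335 on the plus strand (NRF1), *Mrps26* chr2:130563637-130563756 on the plus strand (ETS) and *Mrpl48* chr7:100583131-100583250 on the minus strand (ETS). *Mrpl48* has 4 promoters, and the one shown is the only one with a motif in these bases.
Mrpl9: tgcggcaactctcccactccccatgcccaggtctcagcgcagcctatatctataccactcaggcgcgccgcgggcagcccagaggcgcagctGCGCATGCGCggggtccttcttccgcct
Mrps26: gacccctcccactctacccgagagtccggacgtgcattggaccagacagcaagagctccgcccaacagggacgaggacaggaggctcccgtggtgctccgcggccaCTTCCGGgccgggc
Mrpl48: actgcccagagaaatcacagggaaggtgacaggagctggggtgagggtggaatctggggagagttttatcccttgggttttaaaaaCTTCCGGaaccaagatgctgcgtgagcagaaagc

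In the opposite direction 0 members passed. At ‘peak’ *Mrps6* had 8.91 to 9.16 in BPH/2J against 9.18 to 9.53 in BPN/3J, without overlap, a difference of -0.27 ± 0.07 (adjusted p = 0.0918). It passed with array weights (-0.25, adjusted p = 0.0332) and with a term for the 4 higher-numbered mice (adjusted p = 0.0453). At ‘trough’ its difference was -0.22 ± 0.10 (adjusted p = 0.465). *Mrpl3* gave -0.21 ± 0.06 and -0.19 ± 0.08 (adjusted p = 0.0977 and 0.444), with all BPH/2J mice below all BPN/3J mice at each time. *Mrpl58* gave -0.13 and -0.20 and *Mrps36* -0.24 at ‘peak’, none of which passed. *Mrps5* was higher in BPH/2J by 0.30 ± 0.08 and 0.43 ± 0.11 (adjusted p = 0.0809 and 0.134), and its other probeset gave -0.01 and -0.07. Among related genes, *Dap3*, a small subunit gene with another symbol, was lower in BPH/2J at ‘peak’ by -0.32 ± 0.07 (adjusted p = 0.0331).

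**Figure D5:**
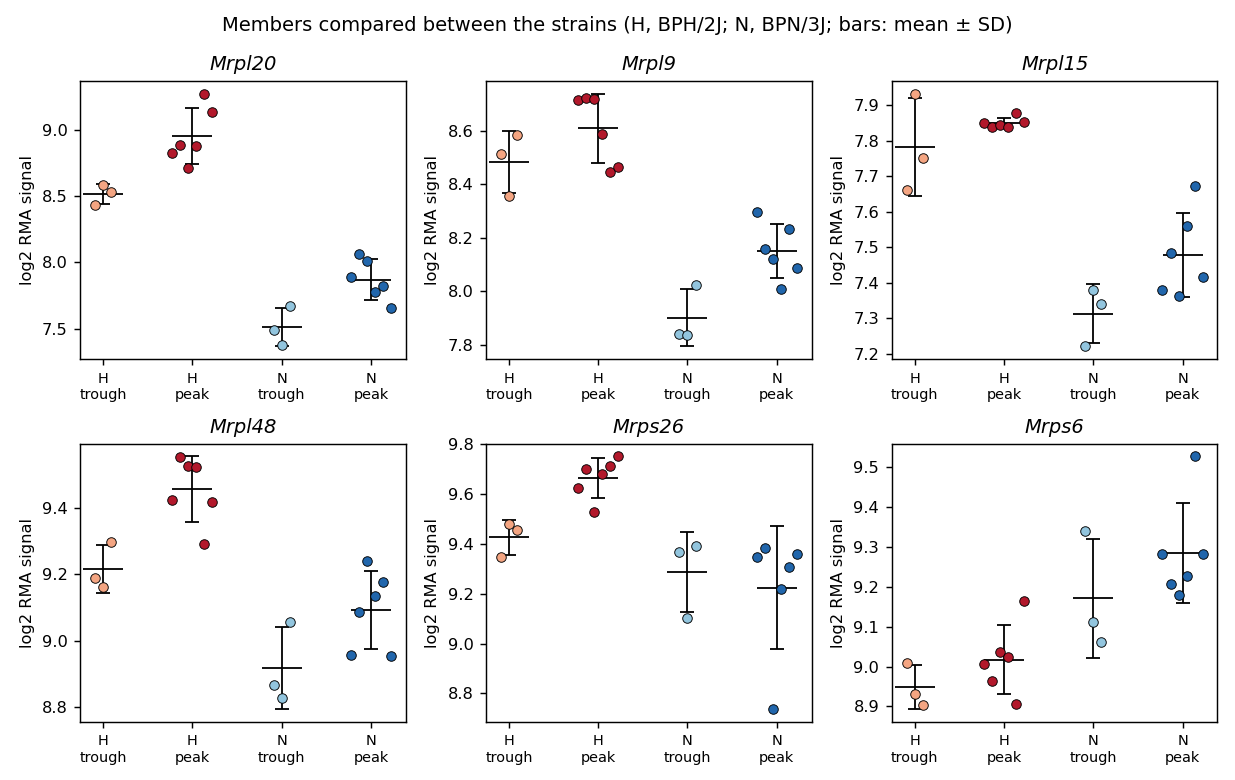
Log2 RMA signal of *Mrpl20*, *Mrpl9*, *Mrpl15*, *Mrpl48*, *Mrps26* and *Mrps6* in each mouse, with the mean and SD of each group (3 ‘trough’ and 6 ‘peak’ mice per strain). All BPH/2J mice lie above all BPN/3J mice for *Mrpl20* and *Mrpl9*, and one BPN/3J ‘peak’ mouse stands at 8.74 in *Mrps26*.

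The quantity *d*, the strain difference at ‘peak’ minus that at ‘trough’, asks whether the change with time differed between the strains. None of the 77 members passed in limma (0 higher, 0 lower), as was true of all 19937 genes (0% in either direction). At an unadjusted p under 0.05, 0 were higher, where 4.02% of all genes were, and 2 lower, where 4.21% were. The *aFD*, the fold that *d* stands for with its sign, reached 1.5 in size in 0 members, where 0.482% of all genes did in the higher and 0.722% in the lower direction. The median *d* was -0.04 for the large and -0.09 for the small subunit. It was -0.003 over all genes and -0.09 over genes in the members' range of level. The median for the large subunit was above 0 with quantile normalization (0.055) and without BPH/2J ‘trough’ mouse 3 (0.0048).

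The 2 members past the unadjusted threshold were *Mrpl22*, with *d* = -0.54 (95% interval -0.93 to -0.14, *aFD* -1.45, adjusted p = 0.589), and *Mrps9*, with *d* = -0.25 (95% interval -0.49 to -0.01, *aFD* -1.19, adjusted p = 0.596). These were 2 of 77, a share below that of all genes at this threshold. *Mrpl1* had *d* = -0.53 (-1.09 to 0.03) and *Mrps17* -0.31 (-0.64 to 0.02). The highest value was that of *Mrps26*, with 0.30 (-0.06 to 0.66). For *Mrps15*, which rose in both strains, the interval was -0.31 to 0.19, and for *Mrpl47* it was -0.74 to 0.25. No difference between the strains was detected for either. With array weights, *Mrps9* and *Mrps17* passed as lower (adjusted p = 0.0425 and 0.0453). In that fit the BPN/3J ‘trough’ mean rests mostly on mouse 3, with a weight of 9.44.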

How the data were processed

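Values were those of 18 arrays, 1 mouse each, normalized by the authors with RMA and deposited on the log2 scale. The release of RMA or of limma that they ran is not given in the sources used here. No value was missing for the 34760 probesets. Samples were grouped by strain and time from their titles. Genes were matched through the platform annotation, and all 77 members were found by gene ID in the RefSeq table with 0 symbols changed. A further probeset with such a symbol (1) carried several symbols and was left out. Some probesets used here, among them those of *Mrpl27*, *Mrpl41*, *Mrpl48* and *Mrpl51*, carry numbers outside the run of the other members on the gene's chromosome. Where the probes of these probesets lie was not checked.

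Differences were tested with limma 3.58.1 under R 4.3.3, as 1 model of the 4 groups with 14 residual and 2.94 prior degrees of freedom, with Benjamini-Hochberg adjustment over all probesets, and the procedure was tested on simulated data. The *aFD* was computed from group means and called at 1.5. The labels do not say that mice came from separate litters or cages, and p-values measure the spread between these mice. The number of arrays limits the precision. Python 3.11.15 and matplotlib 3.10.9 drew the figures.

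Members and lists were chosen with earlier results of these data known. Named members were those past the threshold, up to 10 per direction and comparison by size, the 5 per direction with the smallest p, members whose probesets differed in direction, and up to 4 genes per related list and direction; a few others were named after their values were seen. Counts of related lists and of markers are given without naming all of these genes. Marker lists for neurons, astrocytes, microglia, choroid plexus, thalamus, cortex and red blood cells were also measured. No source used here says that the mouse numbers pair mice, so the main fit did not use them. Residual correlations between arrays with the same number and time ran from -0.30 to 0.19, over too few pairs to exclude a pairing. Alternatives were quantile normalization, median centring, leaving out probesets under the 40th percentile, a robust prior with a trend, weighting of arrays, fits of 2 groups, a block for the mouse number, other probeset choices, group medians, fits that left out the 4 higher-numbered ‘peak’ mice or gave them a term, and leaving out each array. A fit leaving out the 2 least correlated arrays, and one of the 12 arrays of the block fit without the block, were chosen after seeing the data.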

Additional observations from a re-analysis of the deposited data

Results flagged for a closer look

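In 7 of the 72 groups of 6 ‘peak’ mice examined, 1 mouse stood apart from the others by Dixon's criterion, where chance gives about 1 in 20. The groups covered 36 items, which were the members picked by the rule for naming and the median deviation of each subunit. BPN/3J ‘peak’ mouse 7 was low in *Mrps26* (8.74, next 9.22). Among the BPN/3J ‘peak’ mice, mouse 5 was low in *Mrpl22* (6.34, next 6.73), mouse 11 was low in *Mrps18a* (9.03, next 9.30) and mouse 10 was high in *Mrps6* (9.53, next 9.28). Of the BPH/2J ‘peak’ mice, mouse 8 was high in *Mrpl15* (7.88, next 7.85) and in *Mrpl57* (8.63, next 8.42), and mouse 7 was high in *Mrps9* (8.03, next 7.91). Mouse 11 of BPN/3J is one of the 2 arrays least correlated with the rest, and its part in these values was not tested.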

How the results depend on the processing

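Where 23 of the 77 members were higher at ‘peak’ BP in BPH/2J, the count was 46 with array weights (15.3% of all genes higher), 45 without the 4 higher-numbered ‘peak’ mice, 48 with a term for them and 8 in the 12 arrays of the block fit without the block. In BPN/3J, where it was 42, 27 passed in a fit of 2 groups and 25 without the 2 least correlated arrays. Quantile normalization gave 30 higher and 1 lower there, *Mrpl12*. Leaving out single arrays gave 6 to 27 in BPH/2J and 19 to 47 in BPN/3J. Where no share of all genes is printed beside a count, the count alone does not set the members apart from other genes. Median differences in BPN/3J were 0.22 for the large subunit with quantile normalization and 0.43 with median centring, and 0.41 for the small subunit with centring and 0.42 in the 12 arrays. Leaving out single arrays gave 0.26 to 0.34 and 0.14 to 0.24 in BPH/2J and 0.31 to 0.37 and 0.26 to 0.37 in BPN/3J for the large and small subunit.

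Between the strains at ‘peak’ (5), 1 member passed with the replicate block and 3 in its 12 arrays without the block, and leaving out single arrays gave 4 to 5. At ‘trough’ (3), array weights gave 27 (23 higher, 4 lower, with 11.8% of all genes higher), a fit of 2 groups 1, the replicate block 0, its 12 arrays without the block 1, and the fit without the 2 least correlated arrays 1, and leaving out single arrays gave 1 to 3. Quantile normalization gave medians over the large subunit of 0.036 at ‘trough’ and 0.055 for *d*. With array weights 2 members passed for *d*, *Mrps9* and *Mrps17*, both lower. The array weight was 9.44 for BPN/3J ‘trough’ mouse 3 and 0.41 and 0.64 for mice 1 and 4 of that group. Weighted results that use the BPN/3J ‘trough’ group thus rest mostly on mouse 3 there. An *aFD* of 1.5 was reached by 1 member, with a negative *d*, with quantile normalization, the replicate block, its 12 arrays without the block, group medians or without the 4 higher-numbered mice, and by 0 to 2 without single arrays. The block was not possible between times, since a number lies within 1 time. The causes were not tested.

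The direction turned for these members, none of them past the threshold except *Mrpl47*. With the dimmer probeset *Mrpl47* gave -0.015 and -0.10 between times in BPH/2J and BPN/3J, and between strains *Mrps36* gave 0.016 at ‘peak’ and *Mrps5* -0.067 at ‘trough’. With median centring, *Mrps16* gave 0.024 and *Mrps2* 0.037 in BPH/2J, and *Mrps26* 0.033 and *Mrps7* 0.047 in BPN/3J. *Mrps26* gave 0.10 with array weights and *Mrps7* 0.0052 without the 2 least correlated arrays. Without single arrays the strain difference of *Mrps16* at ‘trough’ ran from -0.17 to 0.045. Between times, *Mrpl17* ran from -0.14 to 0.0052, *Mrps16* from -0.088 to 0.020 and *Mrps2* from -0.056 to 0.010 in BPH/2J, and *Mrps26* from -0.16 to 0.034 in BPN/3J.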
